A study of Mus musculus with 2 samples.

Results

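The 10 genes described here serve sodium chloride reabsorption beyond the proximal tubule: Umod, Slc12a1 and Bsnd of the thick ascending limb, Slc12a3 of the distal convoluted tubule, the epithelial sodium channel subunits Scnn1a, Scnn1b and Scnn1g, and the kinases Wnk1, Wnk4 and Stk39. They were chosen by name, and their probes were taken as the gene probes whose RefSeq accession belongs to one of them. This gave 11 probes of 39426 and 10 genes of 20017, with 2 probes for Wnk1 and 1 for each other gene. RNA came from microdissected glomerular regions of male mice (strain background C57BL/6J) that received streptozotocin (STZ), a toxin of pancreatic beta cells, in 100 mmol/l citrate buffer at 8 weeks of age and were killed at 32 weeks. The WT+STZ group was wild type, and the TG+STZ group carried a transgene that overexpresses Sirt1, a protein deacetylase. Both groups therefore received the toxin, and no array of untreated mice was analysed here. The series title concerns Sirt1 of the renal tubule, while the sources used here name neither the promoter of the transgene nor the number of mice behind each array. Each group was 1 array, so no spread within a group could be measured, and the groups were compared without a test or p-value.

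Sodium chloride that escapes the proximal tubule is taken up in series along the distal nephron. In the thick ascending limb the cotransporter NKCC2, encoded by Slc12a1, brings in sodium, potassium and chloride. Chloride leaves the cell on the basolateral side with the help of the channel subunit barttin, encoded by Bsnd. In the distal convoluted tubule the thiazide-sensitive cotransporter NCC, encoded by Slc12a3, takes over, and in the connecting tubule and collecting duct sodium enters through the epithelial sodium channel ENaC. The WNK kinases activate SPAK, encoded by Stk39, which phosphorylates and activates NKCC2 and NCC. Uromodulin, encoded by Umod, is made by the thick ascending limb and is the most abundant protein of normal urine. The thick ascending limb touches its own glomerulus at the macula densa.

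The members' promoters were read from a RefSeq table of assembly GRCm38.p6, which held 8 of the 10 genes. The 250 bases before the transcription start are shown for the members at the ends of the range of differences described below, Scnn1b and Scnn1g at the low end and Umod at the high end, and for Slc12a1, which shares its segment with Umod. They are written 5′ to 3′ on the strand of the gene. The windows are chr7:121864788-121865037 on the plus strand for Scnn1b, chr7:121734229-121734478 on the plus strand for Scnn1g, chr2:125152350-125152599 on the plus strand for Slc12a1 and chr7:119479263-119479512 on the minus strand for Umod. Capitals mark the GC box (GGGCGG, or CCGCCC where it lies on the other strand) and the CCAAT box.
Scnn1b: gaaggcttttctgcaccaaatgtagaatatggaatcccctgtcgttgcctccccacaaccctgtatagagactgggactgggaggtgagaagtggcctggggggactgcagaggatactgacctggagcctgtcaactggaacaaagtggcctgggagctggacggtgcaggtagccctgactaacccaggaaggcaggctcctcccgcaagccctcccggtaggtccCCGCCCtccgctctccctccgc
Scnn1g: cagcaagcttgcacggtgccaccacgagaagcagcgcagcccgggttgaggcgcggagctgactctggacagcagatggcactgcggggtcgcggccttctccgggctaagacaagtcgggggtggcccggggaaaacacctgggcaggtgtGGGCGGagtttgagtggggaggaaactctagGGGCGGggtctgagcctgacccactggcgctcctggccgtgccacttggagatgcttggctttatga
Slc12a1: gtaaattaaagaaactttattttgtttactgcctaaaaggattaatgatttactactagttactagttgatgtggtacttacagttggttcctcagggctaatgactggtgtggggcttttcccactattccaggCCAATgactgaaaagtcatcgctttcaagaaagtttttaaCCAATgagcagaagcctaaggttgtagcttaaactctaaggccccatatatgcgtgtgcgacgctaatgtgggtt
Umod: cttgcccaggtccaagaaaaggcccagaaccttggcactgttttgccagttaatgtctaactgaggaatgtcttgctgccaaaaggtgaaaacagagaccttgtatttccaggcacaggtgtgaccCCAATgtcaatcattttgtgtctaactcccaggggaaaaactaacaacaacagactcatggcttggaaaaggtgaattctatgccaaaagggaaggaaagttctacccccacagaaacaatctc
Counted from the transcription start, with -1 for the last base shown, the Scnn1b window held 1 GC box with its first base at -22, on the other strand, and the Scnn1g window held GC boxes from -98 and -67. Slc12a1 held CCAAT boxes from -115 and -75, and Umod held 1 from -124. A GC box was found in 6 of the 8 member windows and in 32.7% of all 32851 windows of this length. The member windows with a GC box were 60.8 to 82.4% GC, against a median of 52.4% over all windows. Slc12a1 and Umod, without one, were 39.6% and 45.2% GC. The part of base composition in the count was not tested. A CCAAT box was found in 3 of the 8 member windows (Slc12a1, Slc12a3 and Umod) and in 33.8% of all windows. The TATA box (TATAAA) occurred in Slc12a3 and in 12.4% of all windows. No member window held the E box CACGTG (6.02% of all windows) or the TGTTCT half-site of glucocorticoid and mineralocorticoid receptors (16.1%). All 5 motifs were searched on both strands as exact letters, and a match is a description of the sequence and not a binding site. Scnn1b and Scnn1g are neighbours on chromosome 7, where Umod also lies, and the 10 members are spread over 6 chromosomes.

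All 11 member probes were well above background on both arrays, none was saturated and none was marked as an outlier. Distal tubule transcripts were thus measured in RNA labelled as glomerular (the labels speak both of dissected regions and of glomeruli). Podocyte markers were present as well, with all 12 of 12 measured, and so were proximal tubule markers, with 14 of 14. Most genes passed this flag, 15979 of the 20017 with a probe, so passing it was the usual outcome. It also admits dim probes: the dimmest podocyte marker read 32.0 units on WT+STZ and 36.4 on TG+STZ. The values are processed signals in intensity units, compared between arrays after dividing by the 75th percentile of the gene spots of the same array (1933 units on WT+STZ and 2042 on TG+STZ). All differences are log2 values, TG+STZ less WT+STZ. This scaling takes 0.08 off each unscaled log2 difference. The error after ± is that of the scanner software for both spots together, and it covers neither the spread between mice nor that between hybridisations. It is nearly constant for bright spots. Probes spotted at least 5 times gave a smaller figure, with a median SD of the log2 difference of 0.03 over 323 probes, and for 5% of those probes the SD was above 0.22. Brightness of different probes is not compared, since it depends on the probe as well as on the transcript.

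Across the 10 genes the 2 arrays read almost alike. Of the members, 9 were lower on the TG+STZ array, against 49.1% of all 15979 measured genes, and 1, Umod, was higher, against 50.9%. By probe, 10 of 11 were lower, against 48.8% of all measured probes with a gene. The median member difference was -0.14, beside 0.00 for all genes. The shifts were small: 0 of 10 members reached 1.5-fold in either direction (1.92% of all genes were at least 1.5-fold lower and 1.75% at least 1.5-fold higher), and all 10 lay between -0.52 and 0.49, the band that holds 95% of genes. That band includes dim genes, while 9 members were brighter than the median gene. For such genes the band was narrower, -0.34 to 0.37, and Scnn1b lay just outside it. Only Scnn1b and Scnn1g were lower by more than the scanner error, 2 of 10 members against 13.3% of all genes, and no member was higher by more than it, against 10.4% of all genes. Without scaling, 8 of 10 were lower against 29.3% of all genes, with Stk39 crossing to above 0. In bulk tissue, fewer cells of a type and less RNA per cell cannot be told apart. Each gene contributes 1 difference from the same pair of arrays, so the members are not replicates of the comparison.

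**Figure D1:**
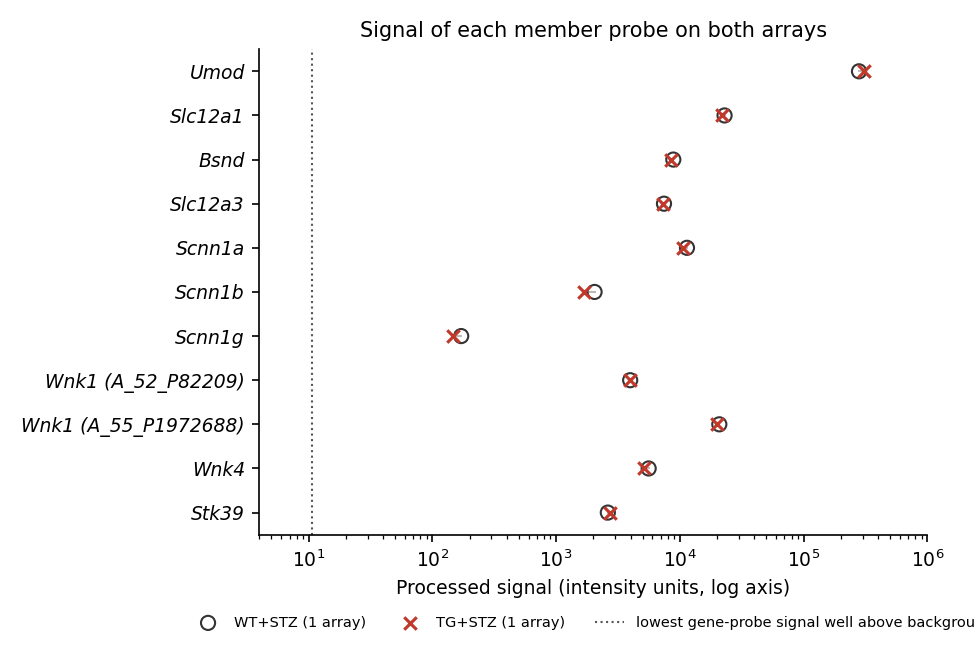
Processed signal of each of the 11 member probes in intensity units on a log axis, with open circles for WT+STZ, crosses for TG+STZ and a dotted line at the lowest gene-probe signal counted as well above background. The paired symbols nearly coincide for most probes, Scnn1b and Scnn1g show the widest separation, and every probe lies to the right of the dotted line at 10.6 units.

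In the thick ascending limb group, Umod gave a very bright spot. It read 280541 units on WT+STZ and 306908 on TG+STZ, and the scaled levels were 7.18 and 7.23. Umod was the single member with a higher scaled level on the TG+STZ array, by 0.05 ± 0.20, well inside the error. The pixels of its spot were 7681 times as bright as the local background on WT+STZ and 8770 times on TG+STZ, and the spot was not saturated.

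Slc12a1, the apical entry step of the same cells, read 22978 and 21891 units on WT+STZ and TG+STZ. Its scaled level was 3.57 on the first array and 3.42 on the second, a difference of -0.15 ± 0.20. Bsnd, which supplies barttin for the basolateral exit of chloride, read 8852 and 8529 units, with scaled levels of 2.19 and 2.06 and a difference of -0.13 ± 0.20. The entry and exit steps thus stood at nearly the same difference, each within its error. The gap between Umod and Slc12a1, products of the same segment, was 0.20, within its scanner error of 0.29. The 1 probe for Slc12a1 carries the accession of a single transcript, and the sources used here do not say which splice forms of NKCC2 it reads.

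Slc12a3, the target of thiazide diuretics in the distal convoluted tubule, read 7442 units on WT+STZ and 7281 on TG+STZ. Its scaled levels were 1.94 and 1.83, and the difference of -0.11 ± 0.20 lay within the error. Slc12a3 and Slc12a1, the cotransporters of adjoining segments, were 0.04 apart with an error of 0.29.

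The ENaC subunits were the lowest group. Scnn1b, the beta subunit, read 2045 units on WT+STZ and 1666 on TG+STZ. Its scaled levels of 0.08 and -0.29 differed by -0.37 ± 0.20, or 1.30-fold lower on the TG+STZ array, which made it the lowest member. Of all measured genes 5.02% stood lower than Scnn1b. It was also the only member at least 20% lower on the TG+STZ array, a size that 6.65% of all genes reached. Among the 7989 genes brighter than the median gene, whose central 95% ran from -0.34 to 0.37, Scnn1b lay just outside that band, with 1.99% of them below it.

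Scnn1g, the gamma subunit, gave a dimmer spot, 7.55 times its local background on WT+STZ and 6.56 times on TG+STZ. It read 171 units on WT+STZ and 147 on TG+STZ. The scaled levels of -3.50 and -3.80 gave a difference of -0.30 ± 0.21, and 7.56% of all genes stood lower. Scnn1a, the alpha subunit, which is needed for channel assembly, read 11416 and 10597 units with scaled levels of 2.56 and 2.38, a difference of -0.19 ± 0.20. All 3 subunits were lower on the TG+STZ array under each of the 9 other scalings, corrections and sources of values tried. Several of these settings shift all genes alike or leave the member values unchanged, so they are not separate checks. The widest gap among the subunits, 0.19 between Scnn1a and Scnn1b, was smaller than its error of 0.29.

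The neighbouring genes on the chromosome were read for the adjoining pair. Usp31, a deubiquitinase on the far side of Scnn1g, stood at -0.05 ± 0.12, and Cog7, a Golgi tethering subunit on the far side of Scnn1b, stood at -0.15 ± 0.20. Each flanking gene lay within its own error of 0, and both stood above Scnn1g and Scnn1b. The error range of Cog7 overlapped those of Scnn1g (-0.30 ± 0.21) and Scnn1b (-0.37 ± 0.20). Cog7 was therefore not set apart from either subunit by more than the scanner error.

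**Figure D2:**
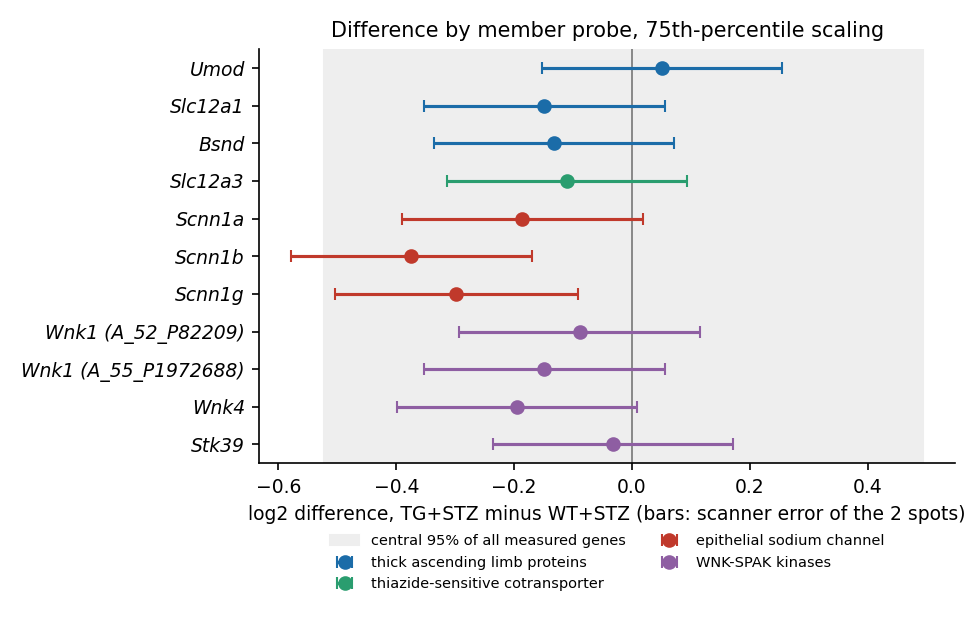
Log2 difference, TG+STZ minus WT+STZ, of each member probe after 75th-percentile scaling, coloured by role, with bars for the scanner error of the 2 spots and a grey band for the central 95% of all measured genes (-0.52 to 0.49). Bars of the Scnn1b and Scnn1g probes stay left of 0, the bars of the other probes cross it, and every point lies inside the band.

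Among the kinases, Wnk1 was read by 2 probes with the same accession. Probe A_55_P1972688 read 20838 units on WT+STZ and 19853 on TG+STZ, a difference of -0.15 ± 0.20. Probe A_52_P82209 read 3967 and 3940 units, a difference of -0.09 ± 0.20. The probes were 0.06 apart, where the median gap over 3479 genes with 2 measured probes was 0.08, and their mean was -0.12 ± 0.14. Wnk1 has a long form and a kidney-specific form that lacks kinase activity, and the sources used here do not say which form each probe reads.

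Wnk4, which acts on NCC in the distal convoluted tubule, read 5594 units on WT+STZ and 5161 on TG+STZ. Its scaled levels were 1.53 and 1.34, and the difference of -0.19 ± 0.20 was about the size of the error. Stk39, which encodes SPAK and passes the WNK signal to the cotransporters, read 2617 units on WT+STZ and 2702 on TG+STZ. Its scaled levels were 0.44 and 0.40, a difference of -0.03 ± 0.20, and it was 0.05 without scaling, so Stk39 has no stable direction. Wnk4 and Stk39 were 0.16 apart with an error of 0.29.

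Ordered from the lowest difference, the members ran Scnn1b, Scnn1g, Wnk4, Scnn1a, Slc12a1, Bsnd, Wnk1, Slc12a3, Stk39 and Umod. The widest gap between neighbours in this order was 0.10, between Scnn1g and Wnk4, less than the error of any single member. The whole range from Scnn1b to Umod was 0.43 with an error of 0.29. The channel subunits filled 3 of the 4 lowest places, and the cotransporters and barttin stood together between -0.15 and -0.11. Of the 9 members brighter than the median gene, 8 were lower on the TG+STZ array, against 40.0% of all such genes. The dimmer member, Scnn1g, was lower too.

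**Figure D3:**
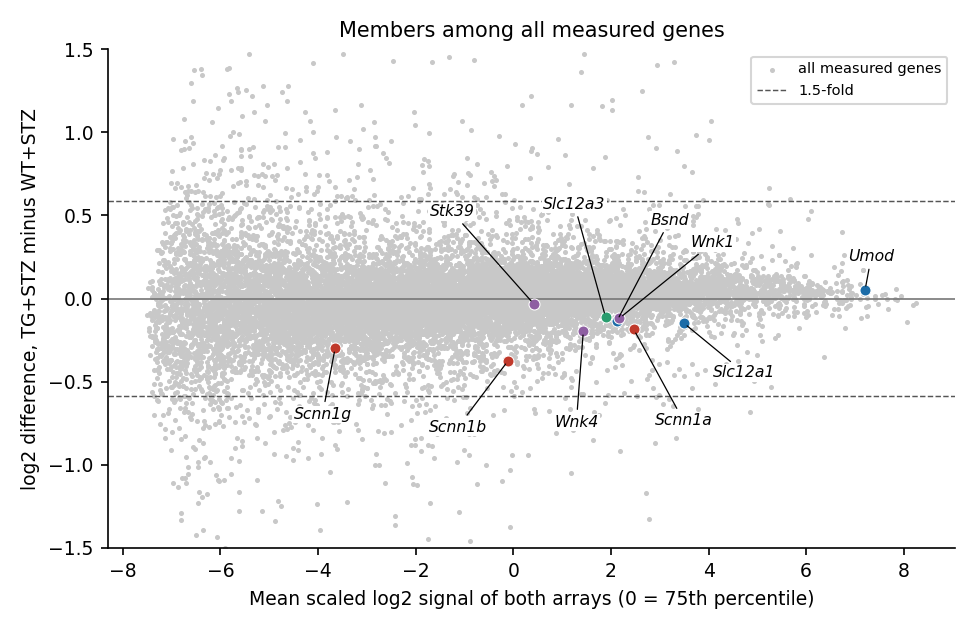
Log2 difference against the mean scaled log2 signal of both arrays for all 15979 measured genes (grey) and the 10 members (coloured by role, as in the plot of differences by probe), with dashed lines at 1.5-fold; 50 genes beyond ±1.5 lie outside the plotted range. The members sit inside the grey cloud between the dashed lines, below 0 except for Umod, with Stk39 close to 0, and Scnn1b lies near the lower edge for its brightness.

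Further genes of the same pathway were taken from 4 lists. Of 49 genes listed, 46 were measured on both arrays. Of these, 28 were lower and 18 higher on the TG+STZ array, against 49.1% of all genes lower, with a median of -0.04, and none reached 1.5-fold. The split was 25 lower and 21 higher under median or spike-in centring, and it turned to 21 lower and 25 higher without scaling, where 29.3% of all genes were lower. Wnk3 and Klhl3 had no probe with a matched accession. Nos1, the nitric oxide synthase typical of macula densa cells, was not well above background on either array (3.53 and 4.02 units), so that cell type was not seen through this marker.

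Transport partners of the members were split, 9 of 13 lower with a median of -0.07, which was 0.01 without scaling. Cldn19, a claudin of the thick ascending limb that forms its divalent cation pathway with Cldn16, stood lowest at -0.28 ± 0.20 (1450 against 1261 units). At the other end Slc12a2, which encodes the widespread relative of NKCC2 called NKCC1, was highest at 0.37 ± 0.20 (3962 against 5407 units). Cldn10, a claudin of the sodium pathway between thick ascending limb cells, stood at 0.23 ± 0.20 (29478 against 36420 units). The sodium-potassium-chloride cotransporters Slc12a1 and Slc12a2 therefore lay on opposite sides of 0, although Slc12a1 was within its error of 0.

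Partners of the WNK and SPAK kinases lay on both sides of 0, 5 lower and 5 higher of 10 measured, with a median of 0.00. The lowest were Ppp1r1a, a protein phosphatase inhibitor of the thick ascending limb, at -0.19 ± 0.20 (5743 against 5315 units) and Sorl1, a sorting receptor, at -0.16 ± 0.20 (6444 against 6091 units). The highest were Klhl2, a ubiquitin ligase adaptor that targets WNK kinases, at 0.19 ± 0.20 (1514 against 1818 units) and Wnk2 at 0.16 ± 0.15 (320 against 385 units). Wnk2 was dim and stood at 0.05 under normexp background correction.

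Regulators in the aldosterone and ENaC list were also split, 8 of 14 lower, with a median of -0.02 that turned positive under median centring, spike-in centring and no scaling. Hsd11b2, which inactivates glucocorticoids and so keeps the mineralocorticoid receptor for aldosterone, was lowest at -0.44 ± 0.20 (919 against 714 units). Tmprss4, a membrane protease that can activate ENaC, stood at -0.23 ± 0.21 (245 against 220 units). Usp2, a deubiquitinase whose transcript follows the daily clock, was highest at 0.33 ± 0.20 (4515 against 5996 units). Sgk1, a kinase induced by aldosterone that holds ENaC at the cell surface, stood at 0.20 ± 0.20 (7654 against 9288 units). Sgk1 was thus on the opposite side of 0 from all 3 channel subunits, although Sgk1 and Scnn1a each lay within error of 0.

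Hormone and calcium receptors of the loop had the lowest median of the 4 lists at -0.19, with 6 of 9 lower. That median was the value of the dim gene Ptgs2, at -0.19 ± 0.24 (36.5 against 33.7 units), well inside its error. The list also holds genes that encode no receptor, such as Ptgs2 and Adcy6. Ptger3, a prostaglandin E2 receptor that restrains transport in the thick ascending limb, was lowest at -0.38 ± 0.14 (2805 against 2263 units), and both of its probes lay between -0.39 and -0.38. Adcy6, an adenylyl cyclase downstream of vasopressin, stood at -0.26 ± 0.20 (3581 against 3160 units). Calcr, the calcitonin receptor, was dim and highest at 0.23 ± 0.22 (68.1 against 84.6 units) but stood at -0.06 under normexp background correction. Maged2, which supports the surface expression of NKCC2 and NCC before birth, stood at 0.11 ± 0.20 (3108 against 3537 units).

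**Figure D4:**
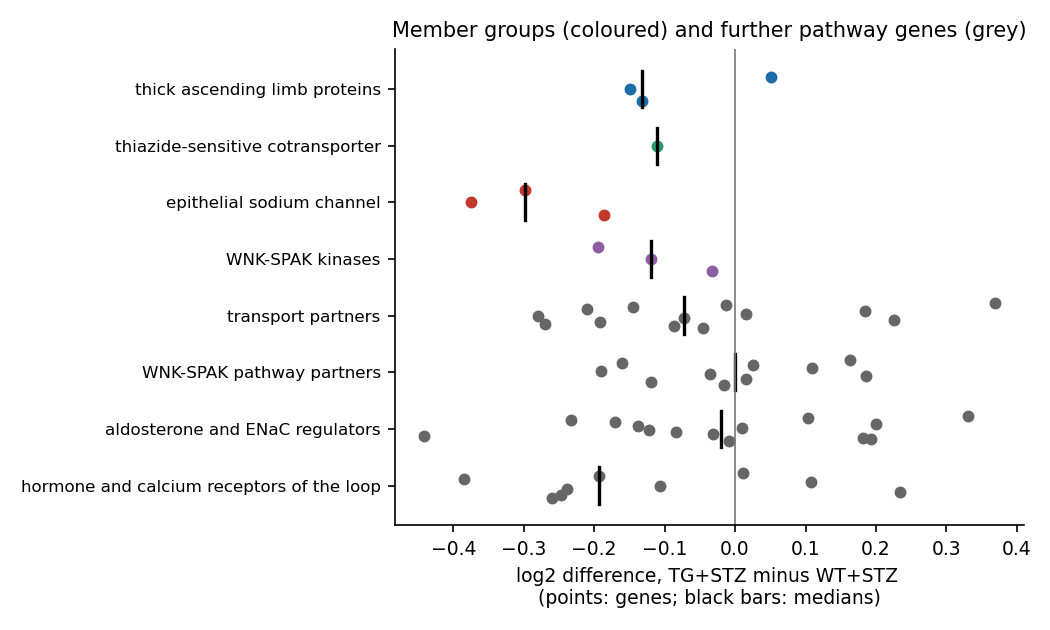
Log2 difference, TG+STZ minus WT+STZ, of each measured gene of the 4 member groups (coloured) and of the 4 lists of further pathway genes (grey), with a black bar at each median. The bar of the ENaC subunits is furthest to the left at -0.30, the hormone and calcium receptors stand at -0.19, and the other pathway lists spread across 0.

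Markers of the cells that carry the members had medians below 0, and so did most of the other cell type lists described below. The counts of lower markers stand beside 49.1% of all genes lower. Thick ascending limb markers, 7 of which are also in the pathway lists, were lower in 9 of 13 with a median of -0.19, and the log2 of their summed scaled signal was 6.98 on WT+STZ and 6.92 on TG+STZ. They ran from Tmem207 at -0.60 ± 0.20 to Cldn10 at 0.23 ± 0.20. Of the members of that segment, Slc12a1 stood at -0.15, Bsnd at -0.13 and Umod at 0.05. Distal convoluted tubule markers were lower in 9 of 10 with a median of -0.15 (summed level 8.30 and 8.31), from the calcium channel gene Trpv5 at -0.39 ± 0.21 to Fxyd2, a sodium pump subunit, at 0.02 ± 0.14. The summed level was carried mostly by Fxyd2, at 473783 against 505833 units, since such a sum weighs the brightest probes most. Fxyd2 is also listed among the transport partners, so the sum does not stand for this segment alone. Slc12a3 stood at -0.11. Of the listed markers of these segments, Mfsd4 and Klhl3 had no probe with a matched accession, and the other 23 were all well above background on both arrays.

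Principal cells of the collecting duct carry ENaC. Their markers were split, 6 of 10 lower, near the 49.1% of all genes, with a median of -0.10 (summed level 5.30 and 5.26). They ran from Kcne1, a dim potassium channel subunit, at -0.98 ± 0.29 (-0.53 under normexp) to Tmem45b at 0.39 ± 0.20. All 3 ENaC subunits stood below that median, with Scnn1a nearest to it at -0.19. Among the same markers Kcne1, Hsd11b2 (-0.44 ± 0.20) and Aqp2 (-0.43 ± 0.20) stood lower than every subunit, while 4 of 10 were higher on TG+STZ. Intercalated cell markers, the neighbouring acid-base cells, were lower in 9 of 11 with a median of -0.35 (summed level 4.69 and 4.28), from Slc26a4, which encodes pendrin, at -0.63 ± 0.20 to Slc4a1 at 0.22 ± 0.20. The part of these cell type shifts in the member differences was not tested.

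Other cell types were read for comparison, again beside 49.1% of all genes lower and 50.9% higher. Proximal tubule markers had a median of -0.02 (8 of 14 lower), which was above 0 under median centring, quantile normalization, spike-in centring and no scaling. Podocyte markers stood at -0.07 (8 of 12 lower), or 0.00 without scaling, glomerular endothelial markers -0.10 (10 of 11 lower), mesangial and smooth muscle markers -0.11 (7 of 9 lower) and parietal epithelial markers -0.24 (6 of 6 lower). Leukocyte markers stood lowest at -0.47 (10 of 10 lower). Fibroblast markers stood at 0.47 (9 of 9 higher) and fat cell markers at 2.06 (4 of 4 higher), or 0.96 under normexp. Of the other 4 fat cell markers listed, Adipoq, Plin1 and Ucp1 were well above background on the TG+STZ array alone and Lep on neither. The part of these differences between the samples in the member values was not tested. The members' median of -0.14 lay within the range of -0.24 to -0.02 spanned by the nephron and glomerular lists other than intercalated cells.

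**Figure D5:**
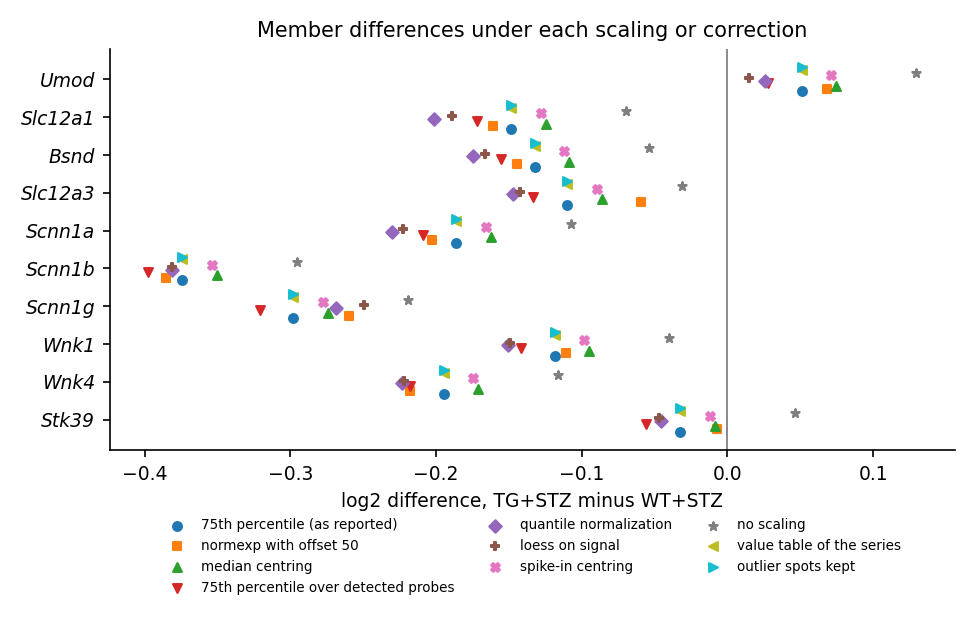
Log2 difference of each member gene under the 75th-percentile scaling and the 9 other scalings, corrections and sources of values, 1 symbol per setting. The symbols of Umod stay right of 0, those of Stk39 fall on both sides of it, those of the other 8 members stay left of it, and Scnn1b runs from -0.40 to -0.30.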

How the data were processed

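Labelled RNA (Cy3, 1 colour) was hybridised to 2 Agilent mouse expression arrays, 1 per group, which lay on 1 slide and were read in 1 scan per the file headers. The deposited scanner tables give intensity for each spot, background-subtracted within the array by Agilent Feature Extraction 10.7.1.1 per the file headers (10.3.1.1 per the submitters' processing notes) and not normalized between arrays. The value table of the series held equal intensity at all 44397 spots. Here, control spots and 114 and 109 outlier spots were left out, log2 intensity was centred on the 75th percentile of each array's gene spots, and spots of a probe, then probes of a gene well above background on both arrays, were averaged. Of 39426 probes, 26410 were named by unversioned accession through a RefSeq table (GRCm38.p6) and 13016 were not. The array design is of build mm9, so probe positions were not set against that table, which gave symbols, chromosomes and the order of neighbouring genes. Promoter windows came from a separate RefSeq table of the same assembly.

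All members are named with every probe. The text names the 2 lowest and 2 highest measured genes of each pathway list and the extremes of the 4 distal cell type lists, except 1 gene that is not reported here. Usp31, Cog7, Aqp2, Ptgs2 and genes listed but not measured were added. The members and lists were chosen with earlier results of these data known. The precision is limited by the number of arrays. The steps were checked on simulated data, in which the second array was a rescaled copy of the WT+STZ array with little noise and known changes. Such a check covers the calculation only, since the copy holds no spread between mice or hybridisations. Software was limma 3.58.1 in R 4.3.3 for the normexp correction and Python 3.11.15 with pandas 2.3.3, numpy 2.4.6, matplotlib 3.10.9 and statsmodels 0.14.6.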

Additional observations from a re-analysis of the deposited data

How the results depend on the processing

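The member differences were recomputed with normexp background correction (offset 50, on spot medians), centring on the median, centring on the spike-ins, a 75th percentile taken over detected probes alone, loess on signal (span 0.3), quantile normalization, the value table, outlier spots kept and no scaling. Each of the 10 members stayed within its scanner error of the reported value under all of these 9 settings, Umod ran from 0.01 to 0.13, Scnn1b from -0.40 to -0.30, and the median member from -0.19 to -0.06. The value table and the kept outlier spots could not change any member, since their member intensities were the same. Median centring, spike-in centring, the percentile over detected probes and no scaling each move every gene by the same amount. That amount was at most 0.08 (without scaling), less than any member's error, so staying within error there was fixed in advance. The median over member probes ran from -0.19 to -0.07. Stk39 changed sign without scaling, which left 2 members higher and 29.3% of all genes lower. No member reached 1.5-fold under any setting. With a laxer threshold (20% lower or 25% higher on TG+STZ), 1 member was lower, 2 pathway genes were lower and 2 higher, and 1063 of all genes were lower and 851 higher, against 306 and 280 at 1.5-fold and 75 and 83 at 2-fold. The 1.5-fold counts of all genes were 149 lower and 109 higher under normexp, 671 and 578 with a laxer detection flag, 849 and 741 with no filter on dim probes, and 56 and 75 among genes brighter than the median gene. The cause was not tested, except that the laxer filters admit more genes and the last setting fewer. No paired analysis was possible because each group has 1 array. One array per group limits every value, and 9 of the 10 members rest on 1 probe each.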
